A study of Mus musculus with 10 samples.

Results

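The 40 genes described here belong to ribosome production in the nucleolus: *Myc*, a transcription factor linked to cell growth, and 39 genes of RNA polymerase I transcription, ribosomal RNA processing and ribosomal subunit assembly. They were taken from a written list of names, and where a gene had several probe sets, the one of highest average over the 10 arrays stood for it. Of the 40, 38 were measured among the 18193 genes of the whole table. *Npm3*, a nucleoplasmin-family chaperone, had no probe set in the annotation used here, and the single probe set of *Mrto4*, a large subunit assembly factor, carries several symbols and was left out. RNA of FACS-sorted mouse T cells was hybridized to Affymetrix GeneChip Mouse Genome arrays, 2 per group. CD4+ TEM and CD8+ TEM (CD62L-CD44+) are effector cells of day 25, grown out of naïve CD4+ or naïve CD8+ T cells of C57BL/6 mice in culture with irradiated B lymphoma cells that express LMP1 and LMP2A, membrane proteins of Epstein-Barr virus. CD4+ memory cells (CD62L+CD44+) of day 25 were labelled as induced from naïve CD4+ T cells as well, and naïve CD4+ and naïve CD8+ T cells (CD62L+CD44-) were the references. The lymphoma cells came from mice in which Cγ1-Cre switches both viral genes on in germinal center B cells, and were expanded in Rag2-deficient mice, so the stimulus is a transgenic model and not a virus infection. The sources used here do not say whether the 2 arrays of a group came from separate mice or cultures, and p-values then measure only the spread between these arrays. Values are log2 RMA levels, differences between groups are log2 fold changes, and a gene is said to have risen, fallen or passed when its limma p, adjusted by Benjamini-Hochberg over all 18193 genes, was under 0.05.

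Ribosomes are built in the nucleolus, where RNA polymerase I transcribes the ribosomal RNA precursor. Small nucleolar ribonucleoproteins (snoRNPs) modify this precursor, those of the box C/D kind by methylation and those of the box H/ACA kind by turning uridine into pseudouridine, while the small subunit processome and a chain of large subunit assembly factors fold and cut it. MYC is known to drive many of these genes in growing cells, and T cells that leave quiescence are known to enlarge their nucleoli.

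The lineage markers followed the labels. *Cd4* read 11.65 and 11.82 in CD4+ TEM, 11.61 and 11.50 in CD4+ memory and 11.87 and 11.89 in naïve CD4+ cells, against 6.51 and 6.89 in CD8+ TEM and 4.30 and 4.10 in naïve CD8+ cells, and *Cd8b1* was high on the 4 CD8+ arrays. *Cd3e*, a chain of the T cell receptor complex, stayed between 12.72 and 13.29 on all 10 arrays. The cultured cells differed from the naïve cells in other ways as well. Of 9 measured B cell markers, 4 were higher in CD4+ TEM, 6 in CD4+ memory and 4 in CD8+ TEM cells than in their naïve cells. Of all genes, 16.4%, 13.5% and 20.9% were higher in that order. Of the 9, 1 was lower in CD4+ memory and 1 in CD8+ TEM cells, against 9.78% and 17.2% of all genes. The mean level of the 9 was 6.07 to 6.30 in CD4+ TEM, 6.54 to 6.94 in CD4+ memory, 3.87 to 4.01 in naïve CD4+, 6.05 to 6.30 in CD8+ TEM and 4.57 to 5.88 in naïve CD8+ cells. *Ebf1* led this list, with 10.56 and 10.32 in CD4+ TEM against 3.71 and 2.93 in naïve CD4+ cells, whereas *Pax5*, which defines the B lineage, stayed at or below 4.33 everywhere, under the array medians of 4.65 to 4.75. Of 7 measured MHC class II genes, which antigen-presenting cells express, 6 were higher in CD4+ TEM, 6 in CD4+ memory and 7 in CD8+ TEM cells than in their naïve cells, with median log2 changes of 6.02, 5.42 and 5.70 in that order, and none was lower. Of 6 myeloid markers, 2 were higher in each of these comparisons, by up to 3.93 on the log2 scale, and none was lower. The shares of all genes given for the B cell markers apply to the MHC class II and myeloid counts too. The 3′ minus 5′ signal of *Gapdh*, a sign of RNA quality, was 0.91 to 1.72 on the 6 cultured arrays and 2.42 to 2.75 on the 4 naïve arrays, while that of actin overlapped, with 0.77 to 2.10 on the cultured and 1.24 to 2.13 on the naïve arrays. Replicate 2 of the naïve CD8+ cells stood apart in immediate early genes, with *Fos* at 13.06 and 7.09 in the naïve CD8+ pair, but no measured gene of the 38 lay 2-fold apart in that pair. The part of these differences in the results below was not tested. In bulk RNA, fewer cells of a type and less RNA per cell cannot be told apart.

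The levels of the 38 genes parted CD8+ from CD4+ arrays. The median level over the 38 genes was 9.15 and 9.09 in CD4+ TEM, 9.19 and 8.61 in CD4+ memory, 9.05 and 9.21 in naïve CD4+, 9.91 and 9.90 in CD8+ TEM and 9.94 and 10.06 in naïve CD8+ arrays. Every CD8+ array lay above every CD4+ array, while the TEM and naïve arrays of CD4+ cells overlapped. By group mean, 16 of the 38 genes were highest in CD8+ TEM and 17 in naïve CD8+ cells, which leaves 1 in CD4+ TEM and 4 in naïve CD4+ cells. Replicates lay close, with 1 of the 38 at least 2-fold apart in any pair, *Nop16*, a large subunit factor, at 5.39 and 7.02 in CD4+ memory cells.

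**Figure D1:**
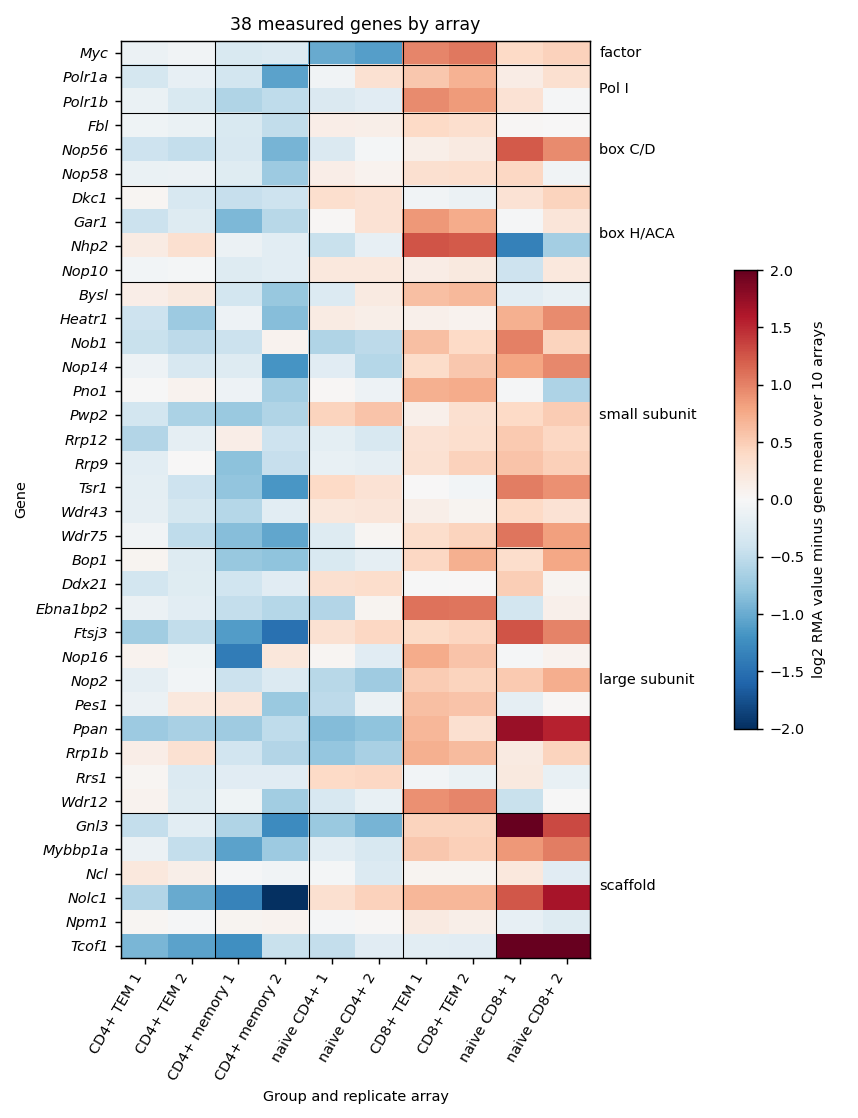
Level of the 38 measured genes (rows, grouped by role) on the 10 arrays (columns, 2 per group), as log2 RMA value minus the mean of that gene over the 10 arrays, with colours stopping at 2 and -2. Red cells gather on the 4 CD8+ arrays, and *Tcof1*, *Gnl3* and *Ppan* are reddest in naïve CD8+ cells.

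*Myc* itself was higher in the cultured cells of both lineages. It read 9.00 and 9.05 in CD4+ TEM, 8.81 and 8.84 in CD4+ memory and 8.11 and 8.01 in naïve CD4+ cells, and 10.09 and 10.16 in CD8+ TEM against 9.52 and 9.57 in naïve CD8+ cells. No 2 groups overlapped, and the order from high to low was CD8+ TEM, naïve CD8+, CD4+ TEM, CD4+ memory and naïve CD4+. The log2 change of TEM against naïve cells was 0.96 ± 0.12 (SE, adjusted p = 0.000704) in CD4+ and 0.58 ± 0.12 (SE, adjusted p = 0.00573) in CD8+ cells, a rise of 1.94-fold and 1.5-fold. The test of their difference did not pass (0.38 ± 0.17 SE, adjusted p = 0.219). CD4+ memory cells were above naïve CD4+ cells by 0.76 ± 0.12 (SE, adjusted p = 0.00291), and their neighbours in the order, the CD4+ TEM cells, did not differ from them past the threshold (0.20 ± 0.12 SE, adjusted p = 0.426). *Myc* has a single probe set, and its 3 rises over naïve cells held in all 10 fits that left out 1 array, with adjusted p up to 0.0469.

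CD4+ TEM cells were compared with naïve CD4+ cells to see how the nucleolar genes stand after the effector culture. Alongside *Myc*, 2 of the 38 genes rose and 6 fell. In all, 3 of 38 were higher (7.89%), against 16.4% of all genes, and 6 were lower (15.8%), against 10.1%, with a median log2 change of -0.015 over the 38 and 0.022 over all genes. With each array centred on its median 2 were higher and 11 lower, and with quantile normalization 2 and 8. Both genes that rose with *Myc* are large subunit factors. *Rrp1b*, the counterpart of a yeast large subunit assembly protein, read 9.77 and 9.96 in CD4+ TEM against 8.87 and 9.00 in naïve CD4+ cells, a change of 0.93 ± 0.16 (SE, adjusted p = 0.00288). *Nop2*, a methyltransferase of the large subunit's ribosomal RNA, read 8.67 and 8.80 in CD4+ TEM against 8.30 and 8.15 in naïve CD4+ cells, a change of 0.51 ± 0.14 (SE, adjusted p = 0.032). Neither pair of groups overlapped, though the rise of *Nop2* was small, and its adjusted p reached 0.164 with 1 array left out.

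The genes that fell in CD4+ TEM cells came from several steps. *Nolc1*, a nucleolar phosphoprotein that escorts snoRNPs, read 8.47 and 8.05 in CD4+ TEM against 9.39 and 9.53 in naïve CD4+ cells (-1.20 ± 0.26 SE, adjusted p = 0.0109). *Pwp2*, a core protein of the small subunit processome, read 8.05 and 7.78 in CD4+ TEM against 8.87 and 8.99 in naïve CD4+ cells (-1.01 ± 0.16 SE, adjusted p = 0.00193). *Ftsj3*, a ribose methyltransferase of the large subunit precursor, read 5.99 and 6.20 in CD4+ TEM against 6.99 and 7.09 in naïve CD4+ cells (-0.95 ± 0.17 SE, adjusted p = 0.00472). All 3 had both TEM arrays well below both naïve arrays, a reduction of 1.93-fold for *Ftsj3*, 2.01-fold for *Pwp2* and 2.29-fold for *Nolc1*. The others fell less. *Tsr1*, a factor of late small subunit maturation, changed by -0.64 ± 0.17 (SE, adjusted p = 0.0222), *Ddx21*, an RNA helicase, by -0.65 ± 0.17 (SE, adjusted p = 0.0232), and *Wdr43*, a processome subunit, by -0.51 ± 0.16 (SE, adjusted p = 0.0452). The calls of *Myc*, *Rrp1b*, *Pwp2* and *Ftsj3* held whichever array was left out, while the number of genes called was 4 without CD4+ TEM replicate 2 or without naïve CD4+ replicate 2, and 5 without naïve CD4+ replicate 1. The other probe set of *Ddx21* read the opposite way (0.17). The 2 subunits of RNA polymerase I, the 3 box C/D proteins and the 4 box H/ACA proteins had log2 changes between -0.49 (*Gar1*) and 0.55 (*Nhp2*), and none of these 9 passed on the chosen probe sets (limma). Other probe sets read lower, with -1.08 and -1.18 for *Polr1a* and -1.0 for *Dkc1*.

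Where MYC binds DNA, it prefers an E-box, written CACGTG, which reads the same on both strands. The stretch from 250 bases before to 50 after the start site, in RefSeq (GRCm38.p6), was found for 33 of the 40 genes, *Myc* not among them, and 6 of the 33 (18.2%) hold CACGTG there, against 8.09% of the 27025 genes with such a stretch. They are *Mybbp1a*, *Nop2*, *Pes1*, *Pno1*, *Tsr1* and *Wdr43*. The variant CACGCG, searched on both strands as CACGCG and CGCGTG, which cannot overlap CACGTG, was in 9 of 33 (27.3%) against 10.5%. Only in *Nop2* does the E-box lie before the start, its first base 60 bases upstream, so that over the 250 bases before the start the counts are 1 of 33 (3.03%) against 6.86%. *Nop2* is the gene that rose in CD4+ TEM cells with this motif, and the 250 bases before its start, chr6:125131633-125131882 on the plus strand, are shown with the E-box in capitals.
Nop2: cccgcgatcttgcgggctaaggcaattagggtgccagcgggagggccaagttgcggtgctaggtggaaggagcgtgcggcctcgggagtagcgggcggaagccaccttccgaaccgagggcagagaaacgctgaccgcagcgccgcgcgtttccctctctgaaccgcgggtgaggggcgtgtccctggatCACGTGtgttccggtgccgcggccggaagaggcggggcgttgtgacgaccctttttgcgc
The next 3 lines show the E-box of genes chosen after their values were seen, because they moved in opposite ways: *Tsr1* and *Wdr43* fell in CD4+ TEM cells, and *Pno1* rose in CD8+ TEM cells. Each has the E-box in capitals with up to 12 bases on either side, at chr11:74898092-74898121 (plus strand), chr17:71616220-71616249 (plus strand) and chr11:17211540-17211564 (minus strand), and begins 25, 18 and 38 bases into the transcript in that order.
Tsr1: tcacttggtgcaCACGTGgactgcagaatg
Wdr43: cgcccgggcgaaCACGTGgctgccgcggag
Pno1: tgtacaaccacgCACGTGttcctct
A match to these letters describes the sequence and does not show binding.

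In CD8+ TEM cells 18 of the 38 genes passed, split evenly between directions. Of these, 9 were higher than in naïve CD8+ cells (23.7%), against 20.9% of all genes, and 9 were lower (23.7%), against 17.2%. The median log2 change was -0.12 over the 38 and 0.056 over all genes. The largest rise was in the box H/ACA group, the pseudouridine machinery. *Nhp2*, an RNA-binding core protein of these particles, read 11.00 and 10.97 in CD8+ TEM against 8.40 and 9.07 in naïve CD8+ cells, a 4.77-fold rise (2.26 ± 0.22 SE, adjusted p = 0.000103). *Gar1*, another core protein, read 11.23 and 11.09 in CD8+ TEM against 10.34 and 10.61 in naïve CD8+ cells (0.69 ± 0.18 SE, adjusted p = 0.0171). *Dkc1*, the pseudouridine synthase of the same particle, went the other way (-0.46 ± 0.15 SE, adjusted p = 0.0446), and *Nop10*, the smallest partner, did not pass (0.27 ± 0.20 SE, adjusted p = 0.347). The decrease of *Dkc1* rests on 1 of its 3 probe sets, since the others read 0.18 and 0.20, and its adjusted p rose to 0.174 with 1 array left out.

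The other rises in CD8+ TEM cells came from both subunit pathways and from the polymerase. *Ebna1bp2*, a large subunit factor, read 11.06 and 11.06 in CD8+ TEM against 9.62 and 10.08 in naïve CD8+ cells (1.21 ± 0.23 SE, adjusted p = 0.00367). *Wdr12*, which works with *Pes1* and *Bop1* in the PeBoW complex of large subunit assembly, read 10.25 and 10.30 in CD8+ TEM against 8.88 and 9.33 in naïve CD8+ cells (1.17 ± 0.24 SE, adjusted p = 0.00554). *Pno1*, a partner of the nuclease that trims the small subunit RNA, read 9.75 and 9.77 in CD8+ TEM against 9.02 and 8.41 in naïve CD8+ cells (1.04 ± 0.24 SE, adjusted p = 0.00922). In all 3 the TEM arrays were nearly equal and the naïve arrays spread more. Of *Wdr12*'s partners, *Pes1* changed by 0.67 ± 0.31 (SE, adjusted p = 0.131) and *Bop1* by 0.0027 ± 0.19 (SE, adjusted p = 0.994), so neither passed. *Bysl*, a small subunit maturation factor, rose by 0.81 ± 0.19 (SE, adjusted p = 0.0103), *Polr1b*, the second-largest subunit of RNA polymerase I, by 0.78 ± 0.15 (SE, adjusted p = 0.00413), and *Npm1*, the abundant nucleolar chaperone nucleophosmin, by 0.36 ± 0.12 (SE, adjusted p = 0.0498). *Npm1* stood at the threshold and lost the call in each of the 10 fits without 1 array (adjusted p 0.0524 to 0.205). The other probe set of *Npm1* read 0.61, and those of *Wdr12* read 0.045 and -0.58, at mean levels of 2.36 and 7.18 in that order.

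The decreases in CD8+ TEM cells were led by nucleolar scaffold proteins. *Tcof1* encodes treacle, which ties RNA polymerase I transcription to processing, and read 7.98 and 7.97 in CD8+ TEM against 10.44 and 10.75 in naïve CD8+ cells, a 6.15-fold reduction (-2.62 ± 0.25 SE, adjusted p = 9.3e-05). Its 2 other probe sets read -2.01 and -2.18. *Gnl3*, the GTP-binding protein nucleostemin, read 10.61 and 10.61 in CD8+ TEM against 12.16 and 11.47 in naïve CD8+ cells (-1.21 ± 0.28 SE, adjusted p = 0.00908). *Ppan*, a large subunit factor, read 8.66 and 8.32 in CD8+ TEM against 9.71 and 9.53 in naïve CD8+ cells (-1.13 ± 0.16 SE, adjusted p = 0.000763). In each of these 3 genes the lower naïve array still lay above the higher TEM array. Smaller decreases passed for *Tsr1* (-0.99 ± 0.17 SE, adjusted p = 0.00176), *Nop56*, a scaffold protein of box C/D particles (-0.94 ± 0.22 SE, adjusted p = 0.00919), *Nolc1* (-0.78 ± 0.26 SE, adjusted p = 0.0483), *Heatr1*, a processome subunit (-0.74 ± 0.24 SE, adjusted p = 0.0417), and *Ftsj3* (-0.73 ± 0.17 SE, adjusted p = 0.0109). A second probe set of *Nop56* read 0.079. The call of *Heatr1* was lost in most fits without 1 array, its other probe sets reading -1.56 and -0.50. The decrease of *Nolc1* was lost in 8 of the 10 fits without 1 array, with the replicate number as a block and with the mean of its probe sets (adjusted p up to 0.283), the other probe sets reading 0.19 and -0.60. With 1 array left out, 10 to 18 of the 38 genes passed, the fewest without CD8+ TEM replicate 2 or naïve CD8+ replicate 1 (10 each) and CD8+ TEM replicate 1 (11). Without naïve CD8+ replicate 2, the array that stood apart, 15 passed, and *Nhp2*, *Tcof1* and *Ppan* passed in all 10 such fits.

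**Figure D2:**
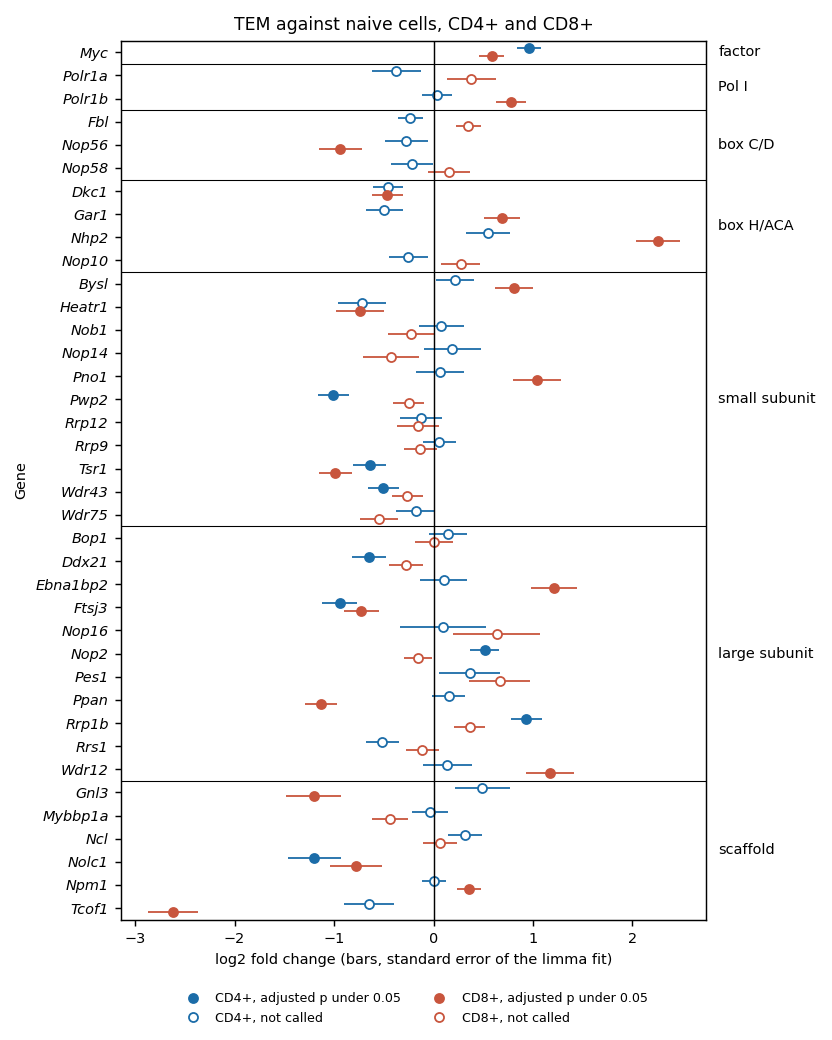
Log2 fold change of TEM against naïve cells for the 38 genes by role (points, CD4+ blue and CD8+ red, filled where adjusted p was under 0.05), with bars for the standard error of the limma fit. Filled red points reach 2.26 for *Nhp2* and -2.62 for *Tcof1*, while filled blue points lie between -1.20 for *Nolc1* and 0.96 for *Myc*.

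The CD4+ and CD8+ changes rest on separate arrays and could be set side by side. Their p-values share 1 estimate of the spread, taken from all 10 arrays, so the calls are not fully independent. *Myc* was the single gene called higher in both, 1 of 3 CD4+ calls (33.3%) and 1 of 9 CD8+ calls (11.1%), where over all genes 2222 were higher in both, 74.5% of the CD4+ and 58.4% of the CD8+ calls. *Ftsj3*, *Nolc1* and *Tsr1* were called lower in both, 3 of 6 CD4+ calls (50%) and 3 of 9 CD8+ calls (33.3%), where over all genes 1248 were lower in both, 67.8% of the CD4+ and 40% of the CD8+ calls. Of these 3 genes, *Nolc1* lost its CD8+ call in most fits without 1 array. None of the 38 was called in opposite directions, against 0.824% of all genes, 15 (39.5%) were called in neither, against 55.3%, and the fitted changes of 11 (28.9%) had opposite signs, against 31.3%. The difference between the CD4+ and CD8+ changes passed as positive for 3 of the 38 genes (7.89%), against 8.03% of all genes, and as negative for 2 (5.26%), against 4.49%. With each array centred on its median 3 were positive and 4 negative.

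The change of *Tcof1* was -0.65 in CD4+ cells and -2.62 in CD8+ cells, which differed by 1.97 ± 0.36 (SE, adjusted p = 0.0117). It read 7.27 and 7.12 in CD4+ TEM against 7.72 and 7.96 in naïve CD4+ cells. The naïve CD8+ arrays were the high ones, since CD8+ TEM cells stood close to naïve CD4+ cells. For *Gnl3* the changes were 0.49 in CD4+ and -1.21 in CD8+ cells (difference 1.70 ± 0.39 SE, adjusted p = 0.0285), with 9.68 and 9.95 in CD4+ TEM against 9.42 and 9.23 in naïve CD4+ cells. For *Ppan* the changes were 0.15 in CD4+ and -1.13 in CD8+ cells (difference 1.29 ± 0.23 SE, adjusted p = 0.0112), with 7.27 and 7.35 in CD4+ TEM against 7.13 and 7.19 in naïve CD4+ cells. In all 3 the naïve CD8+ cells held the highest level of the 5 groups. The 2 negative differences were box H/ACA proteins. For *Nhp2* the changes were 0.55 in CD4+ and 2.26 in CD8+ cells (difference -1.71 ± 0.31 SE, adjusted p = 0.0123), with 9.90 and 10.06 in CD4+ TEM against 9.29 and 9.58 in naïve CD4+ cells. For *Gar1* the changes were -0.49 in CD4+ and 0.69 in CD8+ cells (difference -1.18 ± 0.26 SE, adjusted p = 0.0223), with 9.94 and 10.10 in CD4+ TEM against 10.38 and 10.65 in naïve CD4+ cells. Both were highest in CD8+ TEM cells, without overlap with another group. Only *Ppan* of these 5 kept its call in all 10 fits that left out 1 array (adjusted p up to 0.0485), and 1 of the 38 passed without CD8+ TEM replicate 2, 2 without CD8+ TEM replicate 1 or naïve CD4+ replicate 2, and 3 without either CD4+ TEM array.

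**Figure D3:**
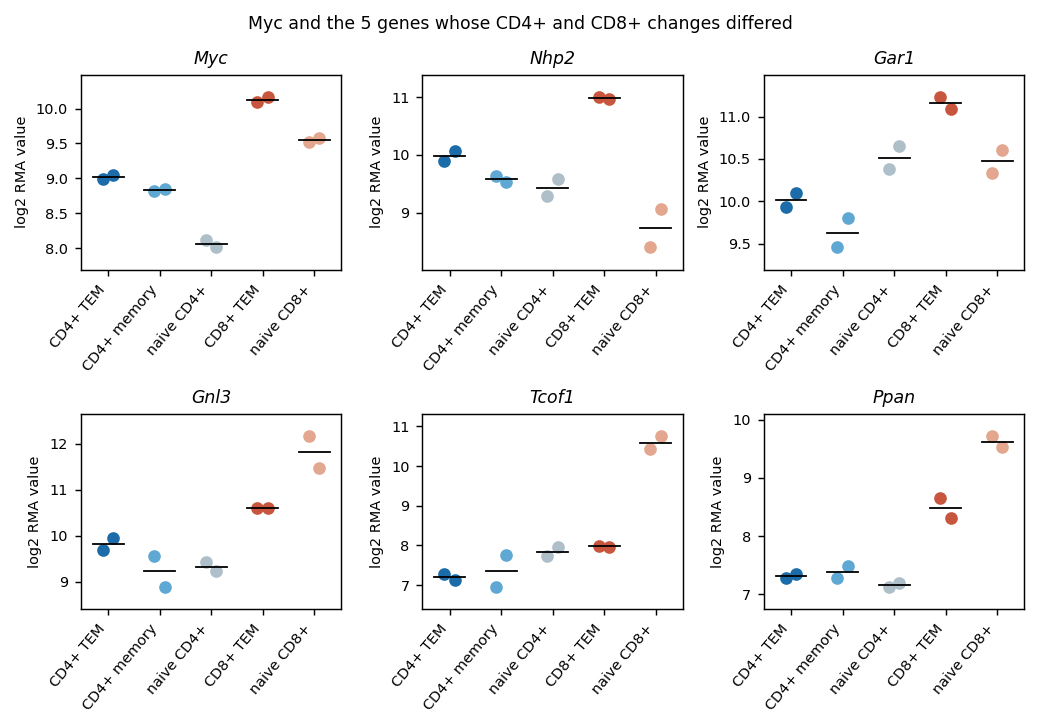
Log2 RMA value of *Myc* and of the 5 genes whose CD4+ and CD8+ changes differed (points, 2 arrays per group, lines at the group means, axes not starting at 0). *Gnl3*, *Tcof1* and *Ppan* are highest in naïve CD8+ cells, and *Myc*, *Nhp2* and *Gar1* in CD8+ TEM cells.

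By group mean, CD4+ memory cells were the lowest group in 25 of the 38 genes. Against naïve CD4+ cells, 1 of the 38 genes was higher (2.63%), *Myc*, against 13.5% of all genes, and 13 were lower (34.2%), against 9.78%. The median log2 change was -0.48 over the 38 genes and 0.080 over all genes. The decreases covered every role apart from *Myc*. *Nolc1* read 7.72 and 6.99 in CD4+ memory against 9.39 and 9.53 in naïve CD4+ cells, a 4.29-fold reduction (-2.10 ± 0.26 SE, adjusted p = 0.000823). *Ftsj3* read 5.57 and 5.20 in CD4+ memory against 6.99 and 7.09 in naïve CD4+ cells (-1.66 ± 0.17 SE, adjusted p = 0.000312). *Tsr1* read 9.27 and 8.89 in CD4+ memory against 10.46 and 10.34 in naïve CD4+ cells (-1.32 ± 0.17 SE, adjusted p = 0.000822). In all 3 genes every memory array was over 1 log2 unit below every naïve array. *Pwp2* followed at -1.19 ± 0.16 (SE, adjusted p = 0.00104). These 4 decreases and the rise of *Myc* held in all 10 fits without 1 array.

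The remaining 9 decreases in CD4+ memory cells were smaller, between -0.89 and -0.51 on the log2 scale. They were *Gar1* (0.00957 as adjusted p) and *Dkc1* (0.00916) of the box H/ACA particle, *Fbl* (0.0215), the methyltransferase of the box C/D particle, and *Polr1a* (0.0418), the largest subunit of RNA polymerase I. The processome subunits *Wdr75* (0.0163) and *Wdr43* (0.0208) fell as well, with the large subunit factors *Ddx21* (0.0265) and *Rrs1* (0.0266) and the scaffold protein *Mybbp1a* (0.0367). Each of these 9 lost its call in at least 1 fit without an array, and 6 of the 38 genes passed without naïve CD4+ replicate 2 and 7 without naïve CD4+ replicate 1. With only the groups compared in the fit, 6 passed. The memory arrays also spread more than the others, 6.89% of all genes lying at least 2-fold apart in that pair. That share was 4.29% in naïve CD8+, 2.68% in CD4+ TEM, 1.75% in naïve CD4+ and 0.912% in CD8+ TEM cells. Set against CD4+ memory cells, CD4+ TEM cells had 31 of 38 positive log2 changes, with a median of 0.32 over the 38 genes and -0.035 over all genes. Of these, 1 rise passed (2.63%, against 3.89% of all genes), that of *Rrp1b* at 9.77 and 9.96 in CD4+ TEM and 9.26 and 9.06 in CD4+ memory cells (0.71 ± 0.16 SE, adjusted p = 0.0403), and it lost the call without any 1 of 7 arrays. The other probe sets of *Rrp1b* read 0.0028 and -0.10 here, and the mean of its probe sets gave 0.20 (adjusted p = 0.541, limma). In CD4+ memory against naïve CD4+ cells they read 0.97 and 1.02, where the chosen one read 0.23. No decrease passed, against 1.64% of all genes. None had an unadjusted limma p under 0.05, where 9 increases did, counts not set against all genes. Without CD4+ memory replicate 1, 6 of the 38 passed.

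The parting of the lineages was compared directly, a step added after the levels were seen. CD8+ TEM cells exceeded CD4+ TEM cells in 37 of 38 genes, with a median log2 difference of 0.66 over the 38 and 0.029 over all genes. Of the 38, 12 passed as higher (31.6%), against 3.53% of all genes. None passed as lower, against 2.19%. At an unadjusted limma p under 0.05 none was lower and 27 were higher, counts not set against all genes. *Nolc1* led with 9.73 and 9.73 in CD8+ TEM and 8.47 and 8.05 in CD4+ TEM cells (1.47 ± 0.26 SE, adjusted p = 0.0201). *Ebna1bp2* (1.24 ± 0.23 SE, adjusted p = 0.0239), *Ppan* (1.18 ± 0.16 SE, adjusted p = 0.00729), *Gar1* (1.14 ± 0.18 SE, adjusted p = 0.0137), *Polr1b* (1.12 ± 0.15 SE, adjusted p = 0.0069) and *Myc* (1.11 ± 0.12 SE, adjusted p = 0.00324) followed. *Wdr12*, *Nhp2*, *Ftsj3*, *Nob1*, *Mybbp1a* and *Pwp2* passed with differences of 0.71 to 1.04, *Nob1* being the nuclease that cuts the end of the small subunit RNA. *Ncl*, nucleolin, was the 1 gene with a negative difference (-0.11 ± 0.17 SE, adjusted p = 0.806). The calls here leaned on each TEM array: 1 of the 38 passed without CD8+ TEM replicate 1, 2 without CD8+ TEM replicate 2, 2 without CD4+ TEM replicate 2, 4 without CD4+ TEM replicate 1 and 7 without either naïve CD4+ array, whereas *Myc* passed in all 10 fits and the median stayed between 0.59 and 0.71. *Gapdh* 3′ minus 5′ signals were 0.91 and 0.93 in CD8+ TEM and 1.19 and 1.31 in CD4+ TEM arrays, those of actin were 0.77 and 0.84 in CD8+ TEM and 1.48 and 1.49 in CD4+ TEM arrays, and their part in the difference was not tested.

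The naïve cells of the lineages differed as well. Naïve CD8+ cells exceeded naïve CD4+ cells at the threshold in 17 of the 38 genes (44.7%), against 13.9% of all genes. None passed as lower, against 6.65%, with 2 lower at an unadjusted limma p under 0.05. With median centring, quantile normalization, a mean of at least 6 in a group or no _x_at and _s_at sets, 1 passed as lower. That number was 2 with the mean of all probe sets or with trend and robust moderation, and 3 with the variation filter. The median log2 difference was 0.31 over the 38 genes and -0.027 over all genes. *Tcof1* read 10.44 and 10.75 in naïve CD8+ and 7.72 and 7.96 in naïve CD4+ cells (2.75 ± 0.25 SE, adjusted p = 0.000325). *Gnl3* read 12.16 and 11.47 in naïve CD8+ and 9.42 and 9.23 in naïve CD4+ cells (2.49 ± 0.28 SE, adjusted p = 0.000764). *Ppan* read 9.71 and 9.53 in naïve CD8+ and 7.13 and 7.19 in naïve CD4+ cells (2.46 ± 0.16 SE, adjusted p = 9.5e-05). All 3 were over 4-fold higher in naïve CD8+ cells, and *Myc* differed by 1.48 ± 0.12 (SE, adjusted p = 0.000204). Of the small subunit genes, 6 passed, namely *Nob1*, *Nop14*, *Wdr75*, *Rrp12*, *Rrp9* and *Tsr1* (1.29 to 0.62), *Rrp9* being a protein of the U3 snoRNP and *Rrp12* a nuclear export factor. *Nop2* (1.26), *Rrp1b* (1.02), *Bop1* (0.80) and *Ftsj3* (0.77) of the large subunit group passed too, with *Nop56* (1.25), *Mybbp1a* (1.21) and *Nolc1* (1.05). The other probe set of *Bop1* read -0.98 and that of *Wdr75* -0.73. Their mean levels were 5.57 and 5.78, beside 8.40 and 9.21 for the chosen sets. With the mean of its probe sets *Wdr75* differed by 0.16 and lost the call (adjusted p = 0.837, limma). The other probe set of *Nop56* read 0.61, and without _x_at and _s_at sets *Nop56* lost the call (adjusted p = 0.143, limma). *Nhp2* was lower in naïve CD8+ cells without passing (-0.70 ± 0.22 SE, adjusted p = 0.0605), the largest negative value of the 38. With 1 array left out the median log2 difference was 0.31 to 0.45, and fewer genes passed without either naïve CD4+ array. Without naïve CD8+ replicate 2, the array that stood apart, fewer passed as well, and some of them passed as lower. B cell markers averaged 4.57 to 5.88 in naïve CD8+ and 3.87 to 4.01 in naïve CD4+ arrays, 2 of 9 passing as higher, against 13.9% of all genes. *Gapdh* 3′ minus 5′ signals were 2.75 and 2.67 in naïve CD8+ and 2.49 and 2.42 in naïve CD4+ arrays, and those of actin 2.13 and 1.73 in naïve CD8+ and 1.46 and 1.24 in naïve CD4+ arrays. The part of these values in the differences was not tested. Both lineage comparisons share arrays with the comparisons above, so they are not independent of them.

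**Figure D4:**
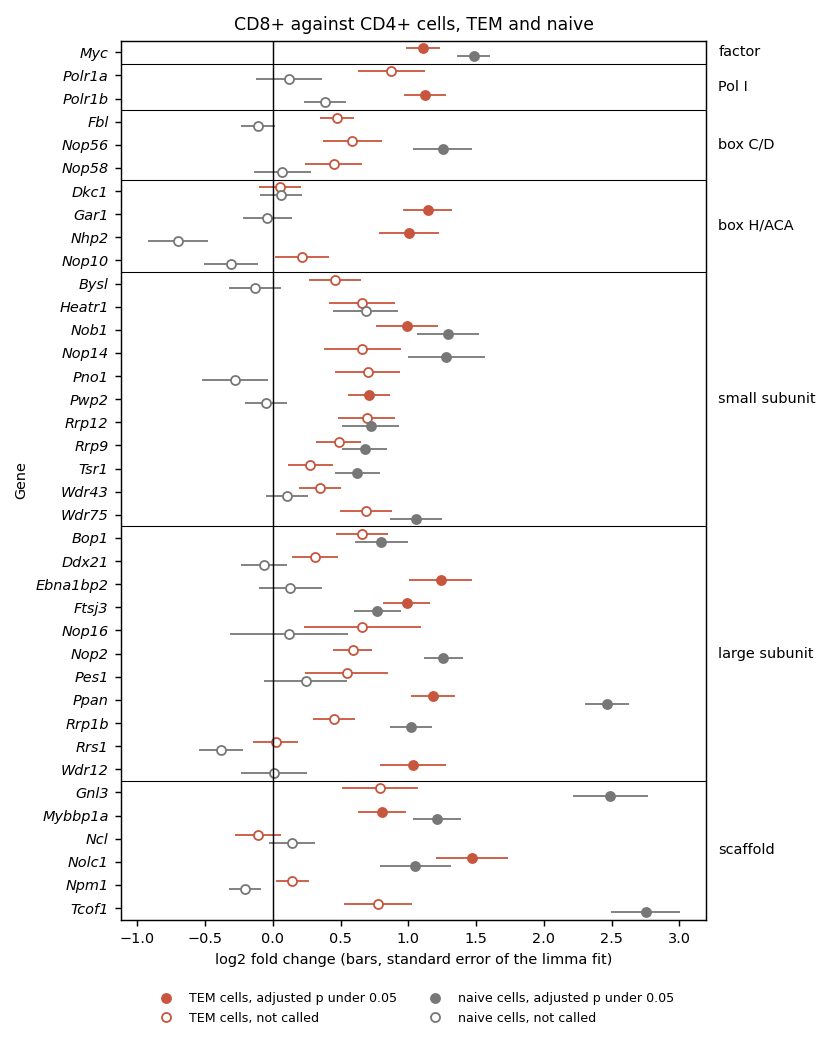
Log2 difference of CD8+ against CD4+ cells for the 38 genes by role (points, TEM cells red and naïve cells grey, filled where adjusted p was under 0.05), with bars for the standard error of the limma fit. Filled points lie to the right of 0, up to 2.75 for *Tcof1* in naïve cells and 1.47 for *Nolc1* in TEM cells.

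A wider set of 135 measured genes of the same pathway, in 5 written lists without the 38, was read the same way. In CD4+ TEM cells 15 were higher (11.1%, against 16.4% of all genes) and 17 lower (12.6%, against 10.1%) than in naïve CD4+ cells. *Ubtf*, the RNA polymerase I factor UBF, changed by -1.45 ± 0.23 (SE, adjusted p = 0.00202), and *Rrp7a*, a small subunit factor, by 1.16 ± 0.14 (SE, adjusted p = 0.000549). In CD8+ TEM cells 28 were higher (20.7%, against 20.9%) and 26 lower (19.3%, against 17.2%), among them *Mdn1*, the ATPase that remodels large subunit precursors (-2.62 ± 0.25 SE, adjusted p = 8.8e-05), and *Exosc3*, an exosome subunit (1.27 ± 0.19 SE, adjusted p = 0.000962). In CD4+ memory cells 6 were higher (4.44%, against 13.5%) and 30 lower (22.2%, against 9.78%), with *Ubtf* again lower at -1.95 ± 0.23 (SE, adjusted p = 0.000537). CD8+ TEM cells were above CD4+ TEM cells in 22 of the 135 (16.3%, against 3.53%), with 0 below, against 2.19%, and 1 below at an unadjusted limma p under 0.05. Naïve CD8+ cells were above naïve CD4+ cells in 35 (25.9%, against 13.9%) and below in 5 (3.70%, against 6.65%).

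Genes that MYC is known to regulate outside the nucleolus were read beside the nucleolar genes. Of 26 such genes measured, 8 were higher in CD4+ TEM cells (30.8%, against 16.4% of all genes) and 21 in CD8+ TEM cells (80.8%, against 20.9%) than in their naïve cells. None passed as lower in either, against 10.1% and 17.2%, with 1 in CD4+ and 0 in CD8+ cells lower at an unadjusted limma p under 0.05. Their median log2 change was 0.39 in CD4+ TEM and 0.99 in CD8+ TEM cells, beside -0.015 and -0.12 for the 38 genes, *Myc* among them. *Ahcy*, an enzyme of the methyl cycle, rose by 2.18 ± 0.13 (SE, adjusted p = 1.0e-05) in CD4+ and 2.33 ± 0.13 (SE, adjusted p = 5.6e-06) in CD8+ cells. *Odc1*, the first enzyme of polyamine synthesis, rose by 1.90 ± 0.41 (SE, adjusted p = 0.0106) in CD4+ and 1.72 ± 0.41 (SE, adjusted p = 0.0112) in CD8+ cells. In CD4+ memory cells 3 of the 26 were higher and 3 lower (11.5% each, against 13.5% and 9.78% of all genes), with a median of 0.020. The list was written with the behaviour of these arrays known, so the contrast with the 38 is a description.

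**Figure D5:**
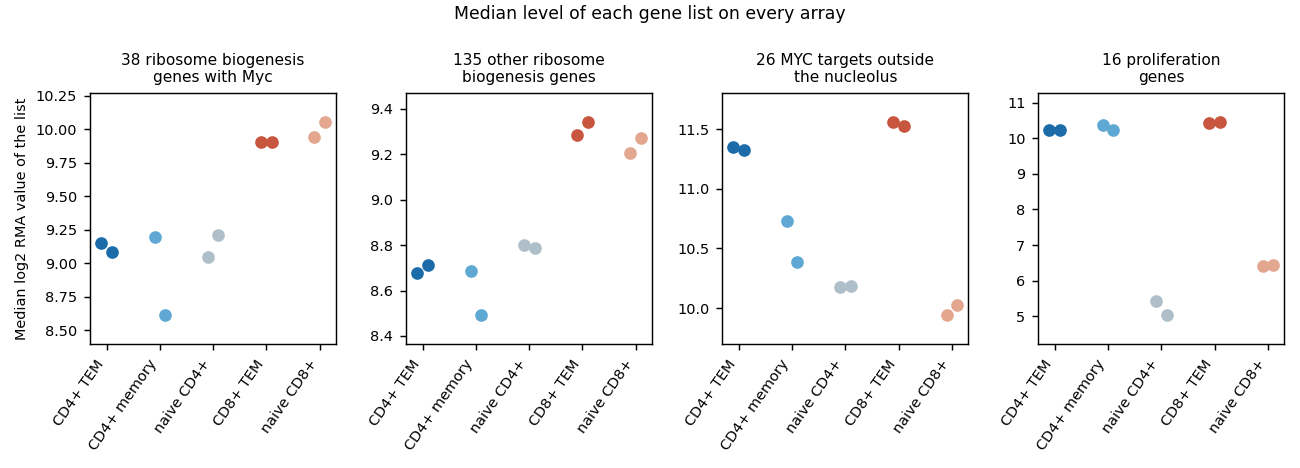
Median log2 RMA value of 4 gene lists on each of the 10 arrays (points, 2 per group, a separate axis for each list, not starting at 0). The 38 genes with *Myc* and 135 further ribosome biogenesis genes are higher on CD8+ arrays, MYC targets outside the nucleolus are higher on TEM than on naïve arrays, and proliferation genes are higher on TEM and CD4+ memory than on naïve arrays.

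Several of the 38 genes are measured by more than 1 probe set, and these did not always move together. The 24 such genes have 37 further probe sets, of which 27 had the sign of the chosen one in CD4+ TEM against naïve CD4+ cells, 23 in CD8+ TEM against naïve CD8+ cells and 32 in CD4+ memory against naïve CD4+ cells. In CD8+ TEM against CD4+ TEM cells 25 of the 37 had that sign, and in naïve CD8+ against naïve CD4+ cells 21. Of the 37, 28 had a mean level of at least 6 over the 10 arrays. Of these 28, the sign was that of the chosen set in 23, 17, 24, 22 and 20, with the comparisons in the order just given. *Nhp2* and *Tcof1* moved the same way on all of theirs, whereas *Nop56*, *Dkc1*, *Wdr12*, *Nolc1*, *Bysl* and *Ebna1bp2* did not in CD8+ TEM cells. With the mean of all probe sets, *Bysl* changed by 0.40 (adjusted p = 0.0857) and *Ebna1bp2* by 0.35 (adjusted p = 0.0900) in CD8+ TEM cells, and both lost the call (limma), their other probe sets reading -0.011 for *Bysl* and 0.32 and -0.50 for *Ebna1bp2*. The other sets of *Ebna1bp2* had mean levels of 2.71 and 3.15, below the array medians of 4.65 to 4.75, beside 9.99 for the chosen one. That of *Bysl* had a mean level of 7.85. Of the 38 genes, 5 passed in no comparison, with log2 values between -0.59 and 0.67 and adjusted p of 0.0846 or more: *Nop58*, a scaffold protein of box C/D particles, with *Nop10*, *Pes1*, *Nop16* and *Ncl*. *Nop16* had a second probe set of mean level 6.65, beside 6.78 for the chosen one. Against naïve cells it read 1.61 in CD8+ TEM, 0.97 in CD4+ TEM and -0.70 in CD4+ memory cells. It read 1.68 in CD4+ TEM against CD4+ memory cells and 1.12 in CD8+ TEM against CD4+ TEM cells.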

How the data were processed

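RNA of sorted mouse T cells was profiled on 10 arrays in 5 groups. Fluorescence signals were normalized by the authors with RMA (BRB-ArrayTools, its version was not given in the sources used here), and the deposited values are on the log2 scale. RMA sets the arrays to one distribution, so a shift of all genes would not be seen. Groups follow titles and source names. Label entries at odds with T cells (a germinal center B cell source, an edited lymphoma line, a Foxo1 status differing between replicates) were set aside. Of 45101 probe sets, 64 are controls, 34945 carried 1 gene symbol, 932 several and 9160 none, which left 18193 genes, each read from the probe set of highest average. All 10 arrays entered one limma 3.58.1 model with a mean per group (R 4.3.3, statmod 1.5.0), and p-values were adjusted over the 18193 genes by Benjamini-Hochberg, threshold 0.05. The authors' filter on log intensity variation and their 2-fold limit were run as alternatives, with other probe set choices, normalizations and fits, and with each array left out. The script was tested on simulated data. Only 2 arrays per group limit the precision. The members and lists were chosen with earlier results of these data known. All measured members are named, with at most 4 genes for each context list, those of largest change among genes that passed and whose arrays did not overlap. Promoters were read from RefSeq (GRCm38.p6), and figures drawn with matplotlib 3.10.9. Same-numbered replicates did not deviate together.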

Additional observations from a re-analysis of the deposited data

Results flagged for a closer look

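For 5 genes the TEM change differed between CD4+ and CD8+ cells by a limma test of the difference itself (CD4+ change minus CD8+ change, n = 2 arrays a group). *Tcof1*, with -0.65 in CD4+ and -2.62 in CD8+ cells, gave 1.97 (adjusted p = 0.0117). *Gnl3*, with 0.49 and -1.21 in the same order, gave 1.70 (adjusted p = 0.0285), and *Ppan*, with 0.15 and -1.13, gave 1.29 (adjusted p = 0.0112). *Nhp2*, with 0.55 and 2.26, gave -1.71 (adjusted p = 0.0123), and *Gar1*, with -0.49 and 0.69, gave -1.18 (adjusted p = 0.0223). *Gapdh* 3′ minus 5′ signals and MHC class II levels differ between cultured and naïve arrays of both lineages. The actin signals were 1.48 and 1.49 in CD4+ TEM against 1.46 and 1.24 in naïve CD4+ arrays, and 0.77 and 0.84 in CD8+ TEM against 2.13 and 1.73 in naïve CD8+ arrays. B cell markers had a median log2 change of 1.26 in CD4+ TEM and -0.053 in CD8+ TEM cells. Their part was not tested.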

How the results depend on the processing

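Over 76 calls of single genes in 7 comparisons, 1565 values under other settings kept direction and call in 1238 cases, kept the direction and lost the call in 321 and reversed in 6, and 28 of the 76 calls held in all 10 fits without 1 array. The reversed values were *Ddx21* at 0.17 in CD4+ TEM and *Wdr12* at -0.58 in CD8+ TEM cells with the variation filter, *Nop56* at 0.079 and *Dkc1* at 0.20 in CD8+ TEM cells without probe sets marked _x_at or _s_at, and *Bop1* in naïve CD8+ against naïve CD4+ cells at -0.091 with the mean of all probe sets and -0.98 with the variation filter. These settings replace the probe set of the gene. The number of the 38 genes called changed as follows. In CD4+ TEM against naïve CD4+ cells (9) it was 14 with array quality weights, 2 with the 2-fold limit and 4 to 11 without 1 array. In CD8+ TEM against naïve CD8+ cells (18) it was 7 with the 2-fold limit and 10 to 18 without 1 array. For the difference (5) it was 10 with a mean of at least 6 in a group, 8 with trend and robust moderation, 9 with array weights and 1 to 7 without 1 array. In CD4+ memory against naïve CD4+ cells (14) it was 6 with only the groups compared, 4 with the 2-fold limit and 6 to 14 without 1 array. In CD4+ TEM against CD4+ memory cells (1) it was 0 with quantile normalization, median centring, only the groups compared, array weights or the 2-fold limit, 3 with the mean of at least 6, 2 with the variation filter or with trend and robust moderation, and 0 to 6 without 1 array. In CD8+ TEM against CD4+ TEM cells (12) it was 25 with array weights and 1 to 17 without 1 array, and in naïve CD8+ against naïve CD4+ cells (17) 10 to 18 without 1 array. The cause of these shifts was not tested, save that a fit without an array has fewer samples. The median change moved in CD4+ TEM (-0.015) to -0.22 with the mean of all probe sets, 0.021 without _x_at and _s_at sets, -0.16 with median centring, -0.27 with the variation filter and -0.044 to 0.032 without 1 array. In CD8+ TEM (-0.12) it moved in the same order to -0.027, 0.070, -0.22 and -0.60, and to -0.17 to -0.051 without 1 array. The median difference (-0.23) was 0.057 with the variation filter and -0.26 to -0.11 without 1 array. CD8+ TEM against CD4+ TEM (0.66) gave 0.58 with the mean of all probe sets, 0.70 without _x_at and _s_at sets, 0.59 with quantile normalization or median centring, 0.78 with the variation filter and 0.59 to 0.71 without 1 array. Naïve CD8+ against naïve CD4+ (0.31) gave 0.50 without _x_at and _s_at sets, 0.17 with quantile normalization, 0.20 with median centring, 0.79 with the variation filter and 0.31 to 0.45 without 1 array. Median centring moved the median of all genes in CD4+ TEM against naïve CD4+ cells to -0.13, from 0.022, and in naïve CD8+ against naïve CD4+ cells to -0.14, from -0.027. Of all genes called in CD4+ TEM against naïve CD4+ cells, 2984 of 4825 were higher, and 2501 of 5146 with median centring. Over the 250 bases before the start, CACGTG was in 1 gene in place of 6 and CACGCG in 4 in place of 9.

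The median of CD4+ memory against naïve CD4+ cells (-0.48) was -0.53 to -0.34 without 1 array, and that of CD4+ TEM against CD4+ memory cells (0.32) 0.24 to 0.37. At an unadjusted limma p under 0.05, 4 of the 38 genes were higher and 11 lower in CD4+ TEM cells than in naïve cells. These counts were 11 and 11 in CD8+ TEM and 1 and 18 in CD4+ memory cells. No unadjusted count of a gene list was set against all genes. The replicate numbers do not pair the arrays (correlations of same-numbered deviations -0.036 to 0.029). With the replicate number as a block, 8, 15, 5, 12 and 1 of the 38 genes passed in the 5 planned comparisons, in the order given above, and 8 and 16 in the lineage comparisons of TEM and of naïve cells, which were chosen after seeing the data.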

Other observations

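The partners and rivals of MYC were measured on the same arrays. Of 14 measured genes of the MYC network, 3 were higher (21.4%, against 16.4% of all genes) and 2 lower (14.3%, against 10.1%) in CD4+ TEM than in naïve CD4+ cells, and 3 were higher (21.4%, against 20.9%) and 7 lower (50%, against 17.2%) in CD8+ TEM than in naïve CD8+ cells. *Mxi1*, whose protein competes with MYC for its partner MAX, rose by 1.73 ± 0.13 (SE, adjusted p = 3.9e-05) in CD4+ TEM, 1.46 ± 0.13 (SE, adjusted p = 0.000127) in CD4+ memory and 1.81 ± 0.13 (SE, adjusted p = 2.0e-05) in CD8+ TEM cells, all against naïve cells. *Mxd1*, of the same family, rose by 1.98 ± 0.36 (SE, adjusted p = 0.00423) in CD4+ TEM and 2.58 ± 0.36 (SE, adjusted p = 0.00134) in CD4+ memory cells. *Mycl*, a MYC paralog, rose by 0.83 ± 0.24 (SE, adjusted p = 0.0381) in CD4+ TEM and 1.89 ± 0.24 (SE, adjusted p = 0.000441) in CD8+ TEM cells. *Trrap*, a coactivator that MYC recruits, fell by 1.69 on the log2 scale in CD8+ TEM cells (adjusted p = 3.9e-05) and by 0.89 in CD4+ memory cells (adjusted p = 0.00252).

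Of 16 measured proliferation genes, 14 were higher in CD4+ TEM (87.5%, against 16.4% of all genes), 15 in CD4+ memory (93.8%, against 13.5%) and 14 in CD8+ TEM cells (87.5%, against 20.9%) than in their naïve cells. Their median log2 changes were 3.29, 3.72 and 2.71 in that order, beside -0.015, -0.48 and -0.12 for the 38 genes with *Myc*. None of the 16 was lower at the threshold, against 10.1%, 9.78% and 17.2% of all genes, or at an unadjusted limma p under 0.05. *Cdk1*, the kinase that starts mitosis, changed by 6.06 ± 0.33 (SE, adjusted p = 7.2e-06) in CD4+ TEM and 5.96 ± 0.33 (SE, adjusted p = 6.1e-06) in CD8+ TEM cells.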
